A study of Mus musculus with 24 samples.

Results

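The comparison described here was that of translational efficiency between pancreatic tumour (KP) and normal (N) organoids that had received vehicle alone. It used 12 of the 24 libraries in the series, namely a polysome and a total mRNA library from each of 3 KP and 3 N lysates. The measure was the log2 ratio of counts scaled to library size (CPM) in the polysome library to CPM in the total library of the same lysate, called the ratio below, and the comparison was made over 11438 genes that had reads in all libraries of the series. N organoids were grown from pancreatic ducts of wildtype C57Bl/6J mice. KP organoids were grown from tumours of KPC mice. In these mice Cre driven by the Pdx1 promoter switches on inducible mutant alleles, that of Trp53 (R172H) among them, in the pancreatic lineage. All lysates had DMSO vehicle for 1 h and cycloheximide, which freezes ribosomes on mRNA, shortly before harvest. Gradient fractions holding mRNAs with at least 3 ribosomes were pooled as the polysome sample. Because the Trp53 mutation is a single-codon change, its counts gave no check of genotype. The labels number the replicates but do not say whether these were separate cultures or animals, so p-values measure the spread between these samples, which may be technical.

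An mRNA is read by several ribosomes at once, and the number it carries depends on how often ribosomes start, how fast they move and how long the coding sequence is. Short mRNAs have room for few ribosomes, so a pool of heavy polysomes and a total lysate sample can differ in how they represent short and long messages. In tumour cells, signalling to the cap-binding complex eIF4F and to mTORC1 is known to change which messages are loaded. The small subunits of the respiratory chain and the proteins of the ribosome are classic short-message families, whereas laminins, collagens, junction scaffolds and chromatin regulators are encoded by long messages.

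The vehicle libraries held between 75799146 and 193500321 counted reads. The 18 pancreatic duct markers summed to 9910 to 15330 CPM in N and 6462 to 10919 CPM in KP vehicle libraries. Acinar markers summed to at most 6.89 CPM, islet markers to at most 2.06 CPM, fibroblast markers to at most 2.02 CPM and endothelial markers to at most 0.568 CPM. Leukocyte markers summed to 15.6 to 25.2 CPM in N and 3.33 to 46.1 CPM in KP libraries. No sequencing lane held both organoid types, so lane and organoid type cannot be told apart. Within the groups, N lysate 3 was in another lane than N lysates 1 and 2 (vehicle), and KP lysate 3 was in another sequencing run than KP lysates 1 and 2. The part of lane or run in the differences between these lysates was not tested.

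The libraries of N replicate 3 stood apart from one another. In the library labelled vehicle polysome, Fos, an immediate early transcription factor, was at 1707 CPM, while the library labelled vehicle total had 61.3 CPM. The library labelled CR-31 total, from organoids given the eIF4A inhibitor CR-31, had 2403 CPM and the library labelled CR-31 polysome had 49.1 CPM. In the other N libraries Fos was at most 124 CPM. Egr1 and Dusp1, further immediate early genes, showed the same split, with 2523 and 2413 CPM in the library labelled vehicle polysome against 143 and 106 CPM in that labelled vehicle total. Across genes, log2 CPM of the library labelled vehicle polysome correlated at r = 0.989 with that labelled CR-31 total and at r = 0.965 with that labelled vehicle total. The library labelled vehicle total in turn correlated at r = 0.989 with that labelled CR-31 polysome, so each correlated more with a library of the other fraction and treatment than with its partner under the labels. Whether labels were exchanged between these libraries was not tested, and if they were, the ratio of N lysate 3 is not that of polysome to total mRNA of 1 lysate. The ratio of N lysate 3 correlated across genes with those of N lysates 1 and 2 at r = 0.12 and 0.11, where N lysates 1 and 2 correlated at r = 0.63 and the KP lysates with each other at r = 0.46 to 0.51. The samples were kept under their labels, and the main results below are given with N lysate 3 and without it. No gene passed the test when N lysate 2 was left out instead. For named genes called without N lysate 3, the value without N lysate 2 is added by a rule set against the value with all lysates. It is added where it lay more than 1.5 times nearer 0 than that value or had the opposite sign. Called genes with no added value can thus still lie well nearer 0 than without N lysate 3 when another lysate is left out. Among them were Hexa, which went from 0.96 to 0.46, and Itga2, which went from -1.73 to -0.98.

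**Figure D1:**
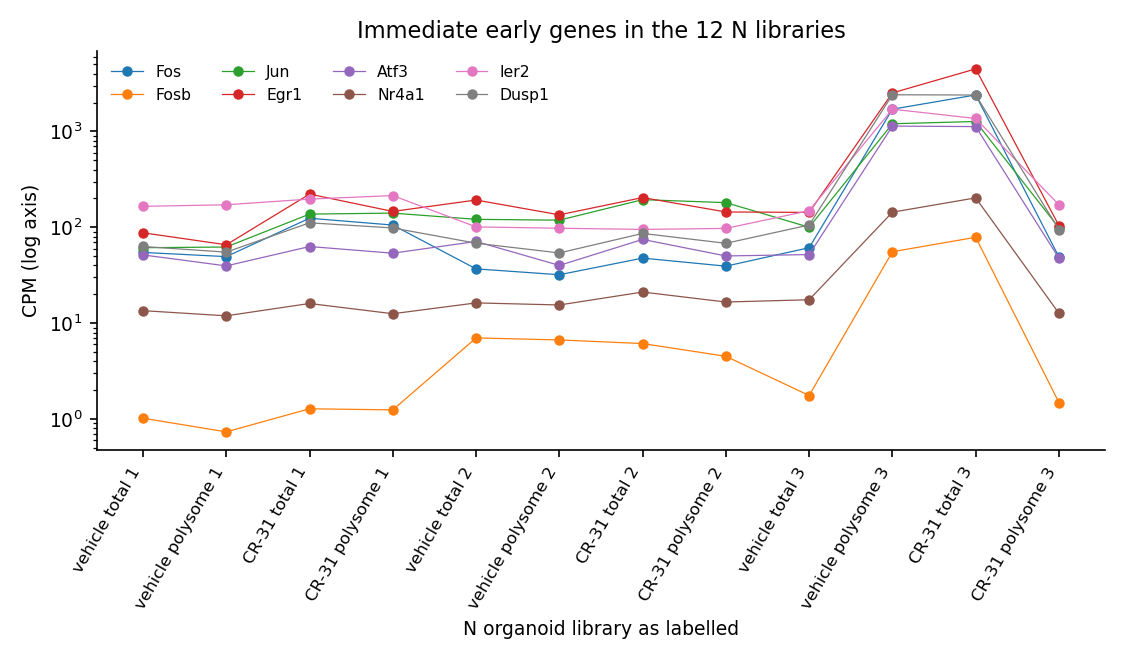
CPM (log axis) of 8 immediate early genes in each of the 12 N organoid libraries, named by their labels, with lines joining the values of a gene. In replicate 3 the libraries labelled vehicle polysome and CR-31 total stand above all others, with Fos at 1707 and 2403 CPM.

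With all 6 lysates, no gene passed an adjusted p of 0.25 in edgeR's quasi-likelihood test of the ratio, and the smallest adjusted p was 0.433. At an unadjusted p under 0.05 there were 655 genes with a higher ratio in KP (5.73%) and 641 with a lower one (5.6%), 11.3% of those tested. The ratios of the 3 KP lysates lay entirely above those of the 3 N lysates for 1483 genes (13%) and entirely below them for 1284 genes (11.2%). Without N lysate 3 the same test called 956 genes higher in KP (8.36%) and 1191 lower (10.4%), with a smallest adjusted p of 0.115. The median difference over all genes was 0.00 with N lysate 3 and 0.02 without it, and the median size of a difference was 0.29 and 0.35 on the log2 scale. "Called" below refers to the test without N lysate 3, and the shares of all genes just given are the background for each count of members.

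Short messages had higher ratios in KP than in N and long messages lower ones. Coding lengths, taken from the GENCODE M21 annotation of GRCm38, were found for 11376 genes (99.5%), which were divided into quintiles with median lengths of 540, 972, 1395, 1992 and 3468 nucleotides. From the shortest to the longest quintile, the median KP minus N difference was 0.29, 0.13, -0.01, -0.15 and -0.41. Without N lysate 3 these medians were 0.30, 0.21, 0.05, -0.14 and -0.55. The longest minus the shortest quintile thus came to -0.70 with all lysates and -0.85 without N lysate 3.

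The 6 lysates differed in the slope itself. In N lysates 1, 2 and 3 the longest quintile exceeded the shortest by 0.24, 0.83 and 0.25. In KP lysates 1 and 2 it lay below the shortest by 0.38 and 0.24 (values of -0.38 and -0.24), and in KP lysate 3 the 2 quintiles were level at 0.00. The N and KP values did not overlap, but N lysate 2 was far steeper than the other N lysates and KP lysate 3 was flat where the other KP lysates declined. That separation takes the libraries of N replicate 3 as labelled. The polysome library labelled CR-31 over the total library labelled vehicle gave -0.05, below KP lysate 3. The polysome library labelled vehicle over the total library labelled CR-31 gave 0.18. Without N lysate 2 the overall value was -0.47. In 20 finer length classes, N lysate 3 climbed from -0.32 in the shortest class to 0.20 at a median of 2103 nucleotides and was at -0.12 in the longest class, a shape that neither of the other N lysates had.

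**Figure D2:**
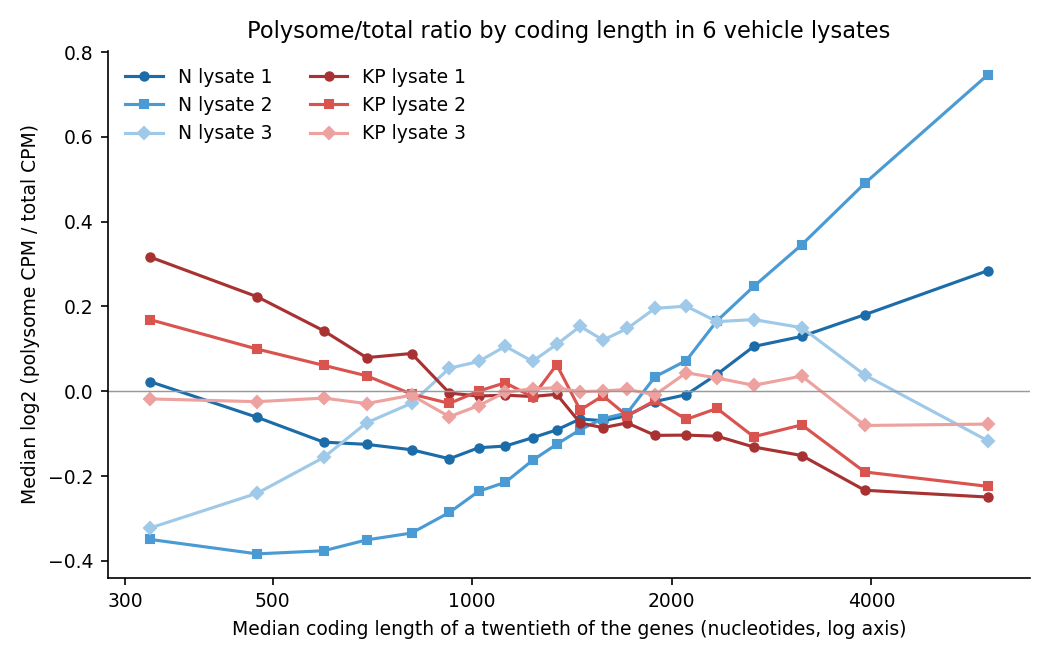
Median ratio (log2 of polysome CPM over total CPM) in 20 classes of genes ordered by coding length (log axis), with a line for each vehicle lysate. N lysates 1 and 2 reach 0.28 and 0.75 in the longest class, while KP lysates 1 and 2 decline to -0.25 and -0.22 and KP lysate 3 stays near 0.

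The calls followed the same order. Among the shortest quintile 394 genes (17.3%) were called higher and 11 (0.483%) lower, and among the longest quintile 4 (0.176%) were called higher and 852 (37.5%) lower. With all lysates, 587 genes of the shortest quintile (25.8%) had 3 KP ratios above all N ratios and 16 had them below. In the longest quintile 52 genes had all KP ratios above and 661 (29.1%) had them below. The median of the lowest vehicle count was 2170 in the shortest and 756 in the longest quintile, so the long messages rested on fewer reads.

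Whole transcript length gave nearly the same contrast as coding length, with a longest minus shortest value of -0.70 (-0.98 without N lysate 3). For 3′ UTR length it was -0.36 (-0.62 without N lysate 3) over 11213 genes. For 5′ UTR length it was -0.12 (-0.24 without N lysate 3) over 11124 genes. By transcript length the longest minus the shortest quintile was 0.30, 0.92 and -0.10 in N lysates 1 to 3 and -0.44, -0.24 and -0.11 in KP lysates 1 to 3, so N lysate 3 was level with KP lysate 3. By 3′ UTR length it was 0.17, 0.53 and -0.33 in N and -0.30, -0.14 and -0.14 in KP, with N lysate 3 below every KP lysate. The separation of all N from all KP lysates by coding length was thus narrow or absent by these other lengths.

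Base composition ran with the difference as well. From the lowest to the highest quintile of coding GC content the median difference was -0.20, -0.12, -0.02, 0.14 and 0.28, and without N lysate 3 it was -0.20, -0.12, 0.01, 0.18 and 0.30. Within the shortest coding-length quintile it went from 0.14 at the lowest GC to 0.45 at the highest, and within the longest from -0.55 to 0.01. Long messages of high GC content thus had a median near 0, and without N lysate 3 it was -0.06. Per lysate, the highest minus the lowest GC quintile was -0.20, -0.49 and -0.32 in N lysates 1 to 3. It was 0.08, 0.10 and 0.20 in KP lysates 1 to 3, with no overlap. GC content was examined after the length result had been seen, and its part in the difference was not tested. The gene lists below were set against coding length only.

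The length contrast was also taken library by library. Relative to each gene's mean over the 12 vehicle libraries, the longest quintile exceeded the shortest by 0.56 and 0.50 in N polysome libraries 1 and 2, against -0.04 in the library labelled N polysome 3. The N total libraries were at 0.23, -0.35 and -0.29. The KP polysome libraries were at -0.27, -0.16 and -0.05 and the KP total libraries at 0.07, -0.01 and -0.08. The N libraries spread more widely than the KP libraries in both fractions, and in the total libraries of N lysates 2 and 3 long messages lay below short ones.

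Of 31 gene lists examined, 13 had a median difference beyond 0.25 in either direction, against a median of 0.00 over all genes, of which 50.2% were above 0. In 3 lists the medians of the KP lysates all lay above those of the N lysates, and in 4 lists they all lay below. Against N lysates 1 and 2 alone there were 13 lists above and 5 below.

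**Figure D3:**
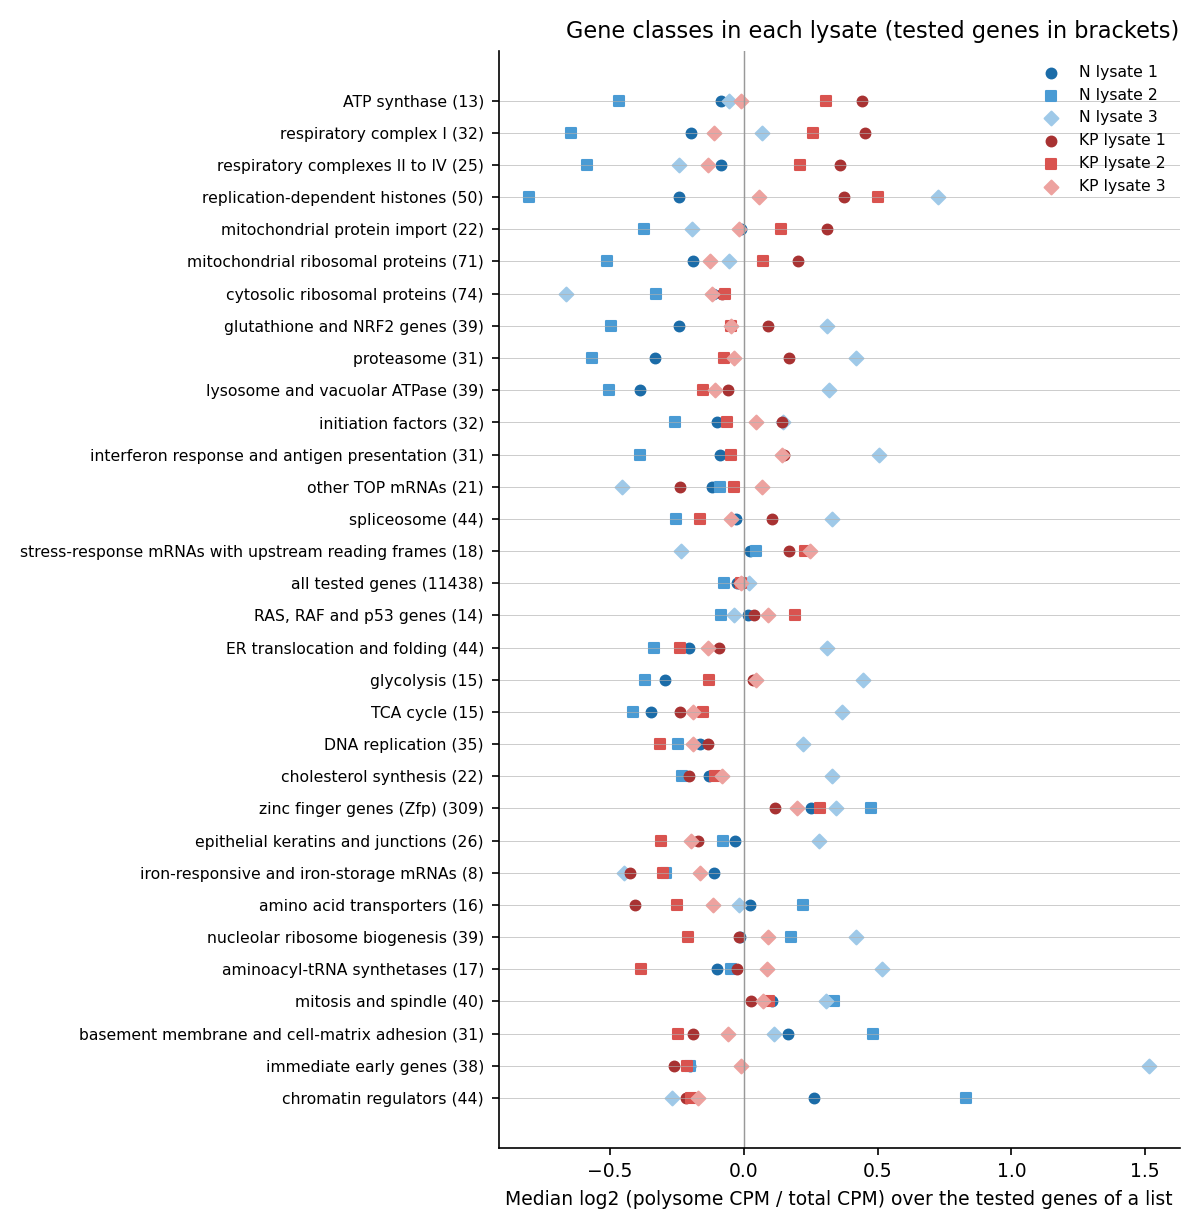
Median ratio (log2 of polysome CPM over total CPM) over the tested members of each gene list in each vehicle lysate, with the number of members in brackets and lists ordered by KP minus N difference. Respiratory and mitochondrial lists lie at the top and chromatin regulators at the bottom, and N lysate 3 stands apart at 1.51 for immediate early genes.

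With all lysates, messages for oxidative phosphorylation had the highest ratios in KP relative to N, whereas without N lysate 3 the histones described below were highest. Complex I, which takes electrons from NADH, had 31 of 32 tested subunits above 0, a median difference of 0.49 (0.59 without N lysate 3) and 16 subunits called higher (50%) with none called lower. Its median ratio was -0.20, -0.64 and 0.07 in N lysates 1 to 3 and 0.45, 0.26 and -0.11 in KP lysates 1 to 3. KP lysates 1 and 2 were above every N lysate, and KP lysate 3 was above N lysates 1 and 2 but below N lysate 3. Without N lysate 2 the complex I median was 0.28.

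The complex I subunits with the largest differences were Ndufa7 and Ndufb7, both accessory subunits. Ndufb7 (chr8:83566671-83571626) had ratios of 0.14, -0.12 and -0.02 in N and 0.98, 0.85 and 0.49 in KP, a fitted difference of 0.78 ± 0.22 (SE, adjusted p = 0.43) and of 0.74 without N lysate 3 (adjusted p = 0.16). Ndufa7 had -0.08, -0.76 and -0.02 in N and 0.66, 0.79 and 0.21 in KP. In both genes all KP values exceeded all N values. At the other end were Ndufa9, with a difference of 0.04 (0.35 without N lysate 3), and Ndufs1, the long iron-sulfur subunit of the electron input module, at -0.51 (-0.22 without N lysate 3). Ndufs1 carried 1.02 in N lysate 3 and values of -0.16 to 0.08 in the other 5 lysates.

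Complexes II to IV had 24 of 25 tested genes above 0, with a median of 0.44 (0.36 without N lysate 3, 0.24 without N lysate 2) and 7 called higher. Complex III had 9 of 9 genes above 0 with and without N lysate 3, and medians of 0.37 and 0.29. Complex IV had 12 of 12 above 0 with N lysate 3 and 11 without it, and medians of 0.47 and 0.42. Uqcrq, a small complex III subunit, had 0.03, -0.44 and -0.51 in N and 0.85, 0.82 and 0.24 in KP, a difference of 0.94 ± 0.27 (adjusted p = 0.43; 0.82 and adjusted p = 0.18 without N lysate 3). Uqcr11, another small subunit of that complex, differed by 0.74 (0.61 and adjusted p = 0.24 without N lysate 3). Sdha, the flavoprotein of complex II and one of the longer genes here, was at -0.66 (-0.39 without N lysate 3), and Cox7a2l, a supercomplex assembly factor, at 0.09 (-0.17 without N lysate 3). Their adjusted p was 0.49 and 0.90 with N lysate 3 and 0.62 and 0.74 without it.

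ATP synthase was among the 3 lists whose KP medians all exceeded the N medians, at 0.44, 0.31 and -0.01 against -0.09, -0.47 and -0.05. Of its 13 tested genes 11 were above 0 and 5 were called higher, and the median difference was 0.53 (0.55 without N lysate 3, 0.35 without KP lysate 1). Atp5g1, which encodes the ring subunit that turns with proton flow (chr11:96068852-96075670), had -0.23, -0.87 and -0.87 in N and 0.49, 0.31 and -0.07 in KP, a difference of 0.90 ± 0.24 (adjusted p = 0.43; 0.77 and adjusted p = 0.17 without N lysate 3). Atp5d, of the central stalk, differed by 0.72 (0.85 and adjusted p = 0.15 without N lysate 3). The long catalytic head subunits behaved otherwise: Atp5a1 was at -0.11 and Atp5b at -0.01 with all lysates, and at 0.14 and 0.32 without N lysate 3, with adjusted p of 0.73 and 0.43.

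The machinery that makes these complexes had the same direction. Mitochondrial ribosomal proteins had 62 of 71 members above 0 (64 without N lysate 3), a median of 0.30 (0.41 without N lysate 3) and 20 called higher (28.2%) with none lower. The large subunit median was 0.30 and the small subunit median 0.34, and both were 0.41 without N lysate 3. Mrpl28 had -0.10, -0.40 and 0.23 in N and 0.86, 0.96 and 0.40 in KP, a difference of 0.83 ± 0.29 (adjusted p = 0.43; 0.97 and adjusted p = 0.16 without N lysate 3), and Mrpl57 differed by 0.74 (0.61 and adjusted p = 0.19). Ptcd3 and Mrps22 had the lowest values of the list, -0.31 and -0.21, which became -0.18 and 0.21 without N lysate 3. Mitochondrial protein import had 16 of 22 genes above 0 (19 without N lysate 3), a median of 0.40 (0.27 without N lysate 3) and 4 called higher. Tomm40, the pore of the outer membrane translocase, had -0.34, -0.47 and -0.59 in N and 0.34, 0.15 and 0.22 in KP, with a difference of 0.70 ± 0.20 (adjusted p = 0.43; 0.62 and adjusted p = 0.16 without N lysate 3), and Tomm5 of the same pore complex differed by 0.73 (0.51 and adjusted p = 0.36). Hspa9 and Timm44, the motor of the inner membrane, were at -0.45 and -0.08 (-0.37 and -0.01 without N lysate 3). The TCA cycle enzymes, longer messages of the same organelle, did not share this, with 6 of 15 above 0 and a median of -0.09 (10 of 15 and 0.06 without N lysate 3).

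Cytosolic ribosomal proteins, of similar length to complex I messages, behaved differently once N lysate 3 was left out. Of 74 tested genes 68 were above 0, with a median of 0.29, but without N lysate 3 there were 52 above 0, the median was 0.13, no gene was called higher and 1, Rpl7, was called lower. The median ratio was -0.11, -0.33 and -0.67 in N and -0.08, -0.07 and -0.12 in KP, so that the 3 KP lysates were close together, N lysate 1 was level with them and N lysates 2 and 3 lay below. Rpl36 and Rps15 had the highest differences, 0.71 and 0.63 (0.64 and 0.45 without N lysate 3). Rpl7 had 0.36, 0.47 and -0.70 in N and -0.23, -0.27 and -0.60 in KP, a difference of -0.41 with all lysates and of -0.81 (adjusted p = 0.16) without N lysate 3, but of -0.22 without N lysate 2. Rps3a1 was at -0.18 (-0.50 without N lysate 3). Ribosomal protein genes have many near-identical processed copies, so their counts are uncertain.

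Ribosomal protein messages are known for a 5′ terminal oligopyrimidine tract, a C at the cap followed by a run of C or T, through which mTORC1 signalling regulates them. The first 20 bases after the annotated RefSeq start (GRCm38.p6) were read for 8848 tested genes, and the tract was taken as a C at the first base followed by at least 4 bases that are each C or T, on the transcript strand. It stood at the start of 12 of 55 cytosolic ribosomal protein genes (21.8%), 0 of 29 complex I genes, 0 of 62 mitochondrial ribosomal protein genes and 255 of all genes (2.88%). An annotated start may lie some bases away from the start used in these cells. The 4 most abundant ribosomal protein genes with the tract and the 4 most abundant complex I genes are printed, with the tract in capitals. The ribosomal protein genes were picked for the tract, which most of the 55 lack, so the printed difference is fixed by that choice.
Rpl15: CTTCCTTTCCTCTggcggca
Rps6: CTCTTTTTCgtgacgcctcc
Rps18: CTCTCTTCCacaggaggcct
Rpl28: CTCTTTCCgtctccggccgc
Ndufa6: acggcagcgagtcccgtggc
Ndufa7: ggtacccaggaatcctcggg
Ndufb4: ggagtcaagatgtcgggttc
Ndufa3: gctccttgtcgccgccaaga

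These starts lie at chr14:18270967-18270986 (minus strand) for Rpl15, chr4:86857348-86857367 (minus) for Rps6, chr17:33955646-33955665 (minus) for Rps18 and chr7:4792965-4792984 (plus) for Rpl28. Those of the complex I genes lie at chr15:82354272-82354291 (minus) for Ndufa6, chr17:33824572-33824591 (plus) for Ndufa7, chr16:37654349-37654368 (minus) for Ndufb4 and chr7:3617373-3617392 (plus) for Ndufa3. The KP minus N difference of the mean ratios was 0.38, 0.04, 0.45 and 0.43 for Rpl15, Rps6, Rps18 and Rpl28, and 0.42, -0.13, 0.21 and 0.23 without N lysate 3. It was 0.45, 0.84, 0.59 and 0.65 for Ndufa6, Ndufa7, Ndufb4 and Ndufa3, and 0.33, 0.97, 0.78 and 0.66 without N lysate 3. Rps6, the ribosomal protein phosphorylated downstream of mTORC1, had -0.19, -0.35 and -0.77 in N and -0.52, -0.43 and -0.25 in KP, which overlap. The 12 ribosomal protein genes with the tract had a median difference of 0.39 (0.22 without N lysate 3) and the other 43 a median of 0.29 (0.16 without N lysate 3).

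Replication-dependent histones, whose messages are short and end in a stem-loop in place of a poly(A) tail, shifted by more than most lists with N lysate 3. Of 50 tested genes 36 were above 0 (43 without N lysate 3), and the median difference was 0.41 with that lysate and 0.97 without it, when 14 were called higher (28%) and none lower. The median ratio was -0.24, -0.80 and 0.73 in N and 0.37, 0.50 and 0.06 in KP. N lysate 3 thus lay above every KP lysate while the other N lysates lay below them. Without N lysate 2 the median difference was 0.09. Hist1h2ad, with -0.31, -1.47 and 1.06 in N and 0.87, 1.48 and 0.97 in KP, differed by 1.35 (1.96 and adjusted p = 0.15 without N lysate 3, 0.71 without N lysate 2), and Hist1h2ae by 1.05 (1.48 and adjusted p = 0.16). Among histones with at least 100 counts in every vehicle library, Hist1h4h and Hist1h2be had the lowest differences, -0.30 and -0.29. Without N lysate 3 they were at 0.19 and -0.50, and Hist1h2be ranged from -0.79 to 2.86 within N. Histone genes are near-identical copies of each other, only 18 of the 50 had 100 counts in every vehicle library, and whether the library kit selected poly(A) RNA is not given in the sources used here.

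Chromatin regulators were the list with the longest messages, at a median coding length of 6545 nucleotides. Their ratios in KP relative to N were the lowest of the lists with all lysates and without N lysate 3. Of 44 tested genes 42 were below 0, with a median of -0.57 (-0.90 without N lysate 3), and 33 were called lower (75%) with none higher. The median ratio was 0.26, 0.83 and -0.27 in N and -0.22, -0.20 and -0.17 in KP, so N lysates 1 and 2 lay above every KP lysate and N lysate 3 lay below them all. Without N lysate 2 the median was -0.19, nearer 0 than the -0.25 of the adhesion genes described next. Atrx, a chromatin remodeller, had 1.35, 2.43 and 1.55 in N and 0.25, 1.00 and 0.30 in KP, a difference of -1.26 ± 0.58 (adjusted p = 0.44; -1.40 and adjusted p = 0.27 without N lysate 3). Ash1l, a histone methyltransferase, differed by -1.07 (-1.55 and adjusted p = 0.16 without N lysate 3, -0.53 without N lysate 2). Ehmt2, the histone H3 methyltransferase also called G9a, went the other way, with 0.10, 0.14 and 0.13 in N and 0.37, 0.58 and 0.46 in KP and a difference of 0.34 ± 0.24 (adjusted p = 0.55; 0.32 and adjusted p = 0.53 without N lysate 3). Kmt2d was at 0.12 with all lysates and -0.34 without N lysate 3.

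Basement membrane and cell-matrix adhesion genes were lower in KP with and without N lysate 3. Of 31 tested genes 27 were below 0, with a median of -0.38 (-0.45 without N lysate 3) and 12 called lower (38.7%). The median ratio was 0.17, 0.48 and 0.11 in N and -0.19, -0.24 and -0.06 in KP, with no overlap. Without N lysate 2 the median was -0.25. All 15 laminin, collagen IV and proteoglycan genes were below 0. Lamc1, the laminin gamma chain of the duct basement membrane (chr1:153218922-153332786), had 0.15, 0.68 and 0.05 in N and -0.77, -1.19 and -0.65 in KP, a difference of -1.16 ± 0.26 (adjusted p = 0.43; -1.31 and adjusted p = 0.13 without N lysate 3). Itga2, the collagen-binding integrin alpha chain, had 0.48, 1.63 and 0.12 against -1.13, 0.01 and -0.83, a difference of -1.39 ± 0.44 (-1.73 and adjusted p = 0.14 without N lysate 3). Itgb5, at 0.42, and Pxn, at 0.15, were the highest of the list (0.35 and 0.08 without N lysate 3).

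Within the epithelial list the junction proteins and the keratins parted. The 20 junction proteins had a median of -0.43 (-0.36 without N lysate 3), with 16 below 0 and 8 called lower, whereas the 6 keratins had a median of 0.19 (0.39), with 5 above 0 and 1 called higher. The keratin median ratio was -0.36, -0.48 and 0.41 in N and -0.12, -0.05 and 0.02 in KP, so N lysates 1 and 2 lay below every KP lysate and N lysate 3 above them all. Tjp1, the tight junction scaffold ZO-1 (chr7:65296165-65527781), had 0.58, 1.5 and 0.70 in N and -0.54, -0.17 and -0.56 in KP, a difference of -1.35 ± 0.43 (adjusted p = 0.43; -1.49 and adjusted p = 0.16 without N lysate 3). Dsp, which links desmosomes to keratin filaments, differed by -1.11 (-1.52 and adjusted p = 0.13 without N lysate 3, -0.72 without N lysate 2). The short claudins Cldn3 and Cldn7, tight junction membrane proteins, were at 0.39 each and at 0.77 and 0.81 without N lysate 3 (adjusted p = 0.18 for both), but at 0.064 and 0.023 without N lysate 2.

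Mitosis and spindle genes had 30 of 40 members below 0, a median of -0.34 (-0.29 without N lysate 3, -0.15 without N lysate 2) and 6 called lower. Their median ratio was 0.11, 0.34 and 0.31 in N and 0.03, 0.09 and 0.07 in KP. The lowest were Cenpe, a very long kinetochore motor, at -1.03 (-1.43 and adjusted p = 0.16 without N lysate 3, -0.57 without N lysate 2), and Top2a at -1.0 (-1.12 and adjusted p = 0.23). Ube2c and Spc24, both short, were the highest at 0.46 and 0.37 (0.20 and 0.54 without N lysate 3). Zinc finger genes of the Zfp series had 227 of 309 members below 0, a median of -0.18 (-0.26 without N lysate 3, -0.064 without N lysate 2). Of these genes 31 were called lower, a share close to that of all genes, and 7 higher. Amino acid transporters had 13 of 16 below 0, a median of -0.24 (-0.23 without N lysate 3, -0.15 without KP lysate 1) and 5 called lower.

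Several classes took their direction from N lysate 3. Immediate early genes had 31 of 38 members below 0 and a median of -0.50, which were 16 of 38 and 0.09 without that lysate, and their median ratio was 1.51 in N lysate 3 against -0.26 to -0.01 in the other 5. Fos had -0.15, -0.20 and 4.80 in N and -0.29, -0.48 and -0.07 in KP, and its difference was -1.43 with N lysate 3 and -0.13 without it. Egr1 had 4.14 in N lysate 3 and -0.80 to -0.42 elsewhere. Srf and Jund, the highest of the list, were at 0.53 and 0.26 (0.25 and 0.47 without N lysate 3).

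Housekeeping enzymes of the proteasome, lysosome and glycolysis had medians near 0 with all lysates and above 0 without N lysate 3. With N lysate 2 left out instead, the proteasome and lysosome medians were -0.025 and -0.060, so their direction rested on which N lysate was left out. The proteasome median was 0.12 and 0.37, with 9 of 31 called higher, all 13 genes of its core particle above 0 and Psmb3 and Psma7 at 0.67 and 0.54 (1.00 and 0.84, adjusted p = 0.14 for both, without N lysate 3, and 0.35 and 0.28 without N lysate 2). Psmd2 and Psmd1, the large scaffold subunits of the regulatory particle, were at -0.66 and -0.49 (-0.48 and -0.20 without N lysate 3). The lysosomal list went from 0.09 to 0.39, with 12 of 39 called higher, Atp6v0b of the proton pump at 0.87 (1.11 and adjusted p = 0.15, 0.57 without N lysate 2) and Hexa, a hexosaminidase, at 0.66 (0.96 and adjusted p = 0.14). Atp6v1a and Scarb2 were its lowest members at -0.43 and -0.40 (-0.36 and -0.31 without N lysate 3). Glycolysis went from -0.03 to 0.32, with 4 of 15 called higher and 1 lower. In all 3 lists the ratio in N lysate 3, 0.42, 0.32 and 0.45, lay above that in every other lysate.

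Glutathione and NRF2 genes, the antioxidant class of interest in this study, had 29 of 39 members above 0 (31 without N lysate 3), a median of 0.17 (0.35 without N lysate 3) and 11 called higher (28.2%) with none lower. The median was 0.01 without N lysate 2, and relative to genes of the same coding length it was 0.00 (0.10 without N lysate 3). The median ratio was -0.24, -0.50 and 0.31 in N and 0.09, -0.05 and -0.05 in KP, so N lysate 3 lay above every KP lysate and N lysates 1 and 2 below them. The 12 glutathione S-transferases had a median of 0.25 (0.48) and 6 calls, and the 9 genes of glutathione synthesis and reduction a median of 0.16 (0.23) and 2 calls. Gpx4, which reduces lipid peroxides, had -0.06, -0.66 and 0.01 in N and 0.68, 0.84 and 0.14 in KP, a difference of 0.79 ± 0.36 (adjusted p = 0.43; 0.89 and adjusted p = 0.24 without N lysate 3). Gpx1 had 0.22, 0.00 and -0.38 against 0.70, 0.71 and 0.47, a difference of 0.68 (0.49 and adjusted p = 0.34). Gclc, the catalytic subunit of the first enzyme of glutathione synthesis, had -0.07, 0.11 and 0.05 in N and -0.51, -0.26 and -0.28 in KP, a difference of -0.38 ± 0.19 (adjusted p = 0.44; -0.40 and adjusted p = 0.28 without N lysate 3). Its short partner Gclm had -0.34, -0.38 and -0.33 in N and -0.17, -0.01 and -0.20 in KP, a difference of 0.22 (0.21). Txnrd1 was at -0.30 (-0.31 without N lysate 3).

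Initiation factors had a median of 0.08 (0.22 without N lysate 3), with 3 of 32 called higher and 3 lower. The 3 called lower were all among the 11 genes of eIF4F and its regulators. Eif4g1, the scaffold of eIF4F, had 0.18, 0.39 and 0.44 in N and -0.33, -0.42 and -0.08 in KP, a difference of -0.61 ± 0.19 (adjusted p = 0.43; -0.59 and adjusted p = 0.16 without N lysate 3). Eif4g3, its paralogue, differed by -0.72 (-0.93 and adjusted p = 0.14), and Eif3a by -0.76 (-0.81 and adjusted p = 0.37). Eif4ebp1, the short inhibitor of eIF4E, had 0.09, -0.13 and -0.75 in N and 0.57, 0.55 and 0.53 in KP, a difference of 0.81 ± 0.28 (0.54 and adjusted p = 0.29 without N lysate 3), and Eif5a differed by 0.49 (0.56 and adjusted p = 0.24). The helicase Eif4a1, target of CR-31, had -0.33, -0.27 and 0.20 against -0.13, -0.67 and -0.28, a difference of -0.23 (-0.09), and the cap-binding Eif4e -0.06 (0.00).

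The iron-responsive list held a contrast between the subunits of ferritin, the iron store, whose messages carry an iron-responsive element that holds back their translation. Ftl1, the light chain, had -1.04, -1.26 and -1.43 in N and -0.54, -0.40 and -0.26 in KP, a difference of 0.84 ± 0.26 (adjusted p = 0.43; 0.72 and adjusted p = 0.20 without N lysate 3). Fth1, the heavy chain, had -0.83, -1.27 and -1.39 in N and -0.86, -1.17 and -0.76 in KP, a difference of 0.24 ± 0.23 (0.10 without N lysate 3). The ratio was below 0 for both chains in every lysate, and the KP and N groups were separate for Ftl1 and overlapped for Fth1. Tfrc, the transferrin receptor, and Aco1, the iron regulatory protein, were at -0.42 and -0.57 (-0.47 and -0.33 without N lysate 3).

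The order of the classes ran with coding length. When each gene's difference was taken relative to the median of genes in the same twentieth of coding length, 1 of the 31 lists kept a median beyond 0.25, namely the immediate early genes at -0.62, and without N lysate 3 there were 5. The complex I median went from 0.49 to 0.20 (0.33 without N lysate 3), with 27 of 32 genes above others of their length. Its median ratio relative to genes of that length was -0.12, -0.33 and 0.27 in N and 0.20, 0.20 and -0.10 in KP. N lysate 3 thus lay above every KP lysate. ATP synthase went to 0.16 (0.26) and mitochondrial ribosomal proteins to 0.12 (0.14), complexes II to IV to 0.10 (0.04) and cytosolic ribosomal proteins to -0.03 (-0.18). The ATP synthase groups then overlapped, with N lysate 3 at 0.17 and KP lysates 1 to 3 at 0.22, 0.16 and 0.01. The histones were at 0.03 with N lysate 3 and 0.66 without it. Chromatin regulators went from -0.57 to -0.03 (-0.02), and adhesion genes from -0.38 to 0.08 (0.19). Chromatin regulators were thus close to other messages of their length in both versions, while the 5 lists beyond 0.25 without N lysate 3, namely complex I, ATP synthase, histones, glycolysis (0.04 and 0.35) and the lysosomal list (0.06 and 0.28), had medians above 0 in both, as did several others. The laminin, collagen IV and proteoglycan genes were at 0.08 with all lysates and 0.44 without N lysate 3.

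**Figure D4:**
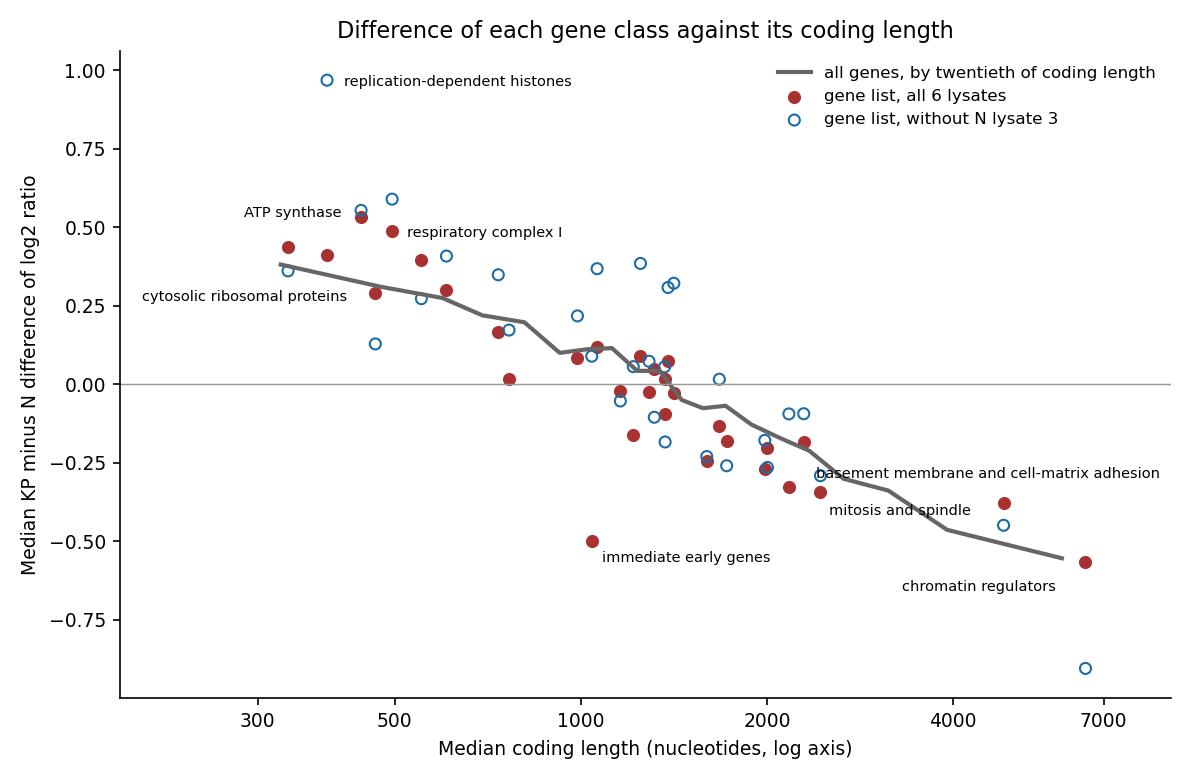
Median KP minus N difference of the ratio (log2 scale) of each of 31 gene lists against the median coding length of its members (log axis), with all 6 lysates (filled) and without N lysate 3 (open), beside the median of all genes by length (line). Complex I at 0.49 and ATP synthase at 0.53 lie above the line, chromatin regulators at -0.57 lie near its end, and immediate early genes at -0.50 lie far below it with N lysate 3 only.

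Single genes with the largest differences were named where 100 counts were present in each vehicle library and the 3 KP ratios did not overlap the 3 N ratios. The direction and separation of these genes are fixed by that choice. Of the 10 named as higher, the first, Rpl31-ps12, is listed as a ribosomal protein pseudogene, with ratios from -4.38 in N lysate 3 to 3.15 in KP lysate 2, and copies of a gene can be hard to tell apart in counting, so its value is uncertain. Gm21188 is likewise a predicted gene of unknown role, at 1.41 (0.82 and adjusted p = 0.31 without N lysate 3). The others were Hist1h2bf (0.98), Tmem86a (0.97), the calcium-binding S100a4 (0.96), adenylate kinase Ak1 (0.96), the RNase P subunit Rpp25 (0.96), Tmub1 (0.95), Uqcrq (0.94) and Tmem160 (0.94), with adjusted p = 0.43 for each. Their coding lengths ranged from 249 to 783 nucleotides.

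Tmub1 (chr5:24445458-24447854), a ubiquitin-like membrane protein gene, had -0.22, -0.65 and -0.20 in N and 0.46, 0.85 and 0.48 in KP, with an SE of 0.26 and a difference of 1.01 (adjusted p = 0.14) without N lysate 3. Tmem160 (chr7:16452779-16455494) had 0.04, -0.39 and 0.03 in N and 0.93, 0.97 and 0.61 in KP, and differed by 0.98 (adjusted p = 0.15) without N lysate 3. Tmem86a, S100a4, Ak1, Rpp25 and Hist1h2bf were at 1.28, 0.71, 0.88, 0.68 and 0.72 without N lysate 3. Of these 5, S100a4 had the highest adjusted p in that fit, 0.34, and Tmem86a the lowest, 0.14, although Tmem86a was at 0.64 without N lysate 2. The gap between the groups was wide in Tmub1 and Tmem160, and narrow in Tmem86a, where N lysate 3 had 0.25 and KP lysate 3 had 0.27.

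Of the genes with the largest differences in the lower direction, 9 are given, namely Sorl1 (-1.44), Kif13b (-1.44), Vps13a (-1.40), Itga2 (-1.39), Iqgap2 (-1.38), Prrc2c (-1.36), Dmbt1 (-1.35), Tjp1 (-1.35) and Uprt (-1.33), each with adjusted p = 0.43. Their coding lengths ran from 3537 to 9501 nucleotides except for Uprt, with 933. Sorl1 (chr9:41964720-42124297), a sorting receptor, had 0.16, 0.82 and 0.06 in N and -1.01, -1.40 and -0.89 in KP, with an SE of 0.30 and a difference of -1.61 (adjusted p = 0.11) without N lysate 3. Kif13b (chr14:64647265-64809617), a kinesin motor, had 0.18, 0.75 and 0.13 in N and -1.36, -0.84 and -1.04 in KP, and differed by -1.57 (adjusted p = 0.13) without N lysate 3. In both genes the gap between the groups was wider than the range within either. Vps13a, a lipid transfer protein and the longest of the 9, was above 0 in all lysates, at 1.46, 2.17 and 1.97 in N and 0.30, 0.61 and 0.48 in KP. Vps13a, Iqgap2, Prrc2c, Dmbt1 and Uprt were at -1.37, -1.49, -1.37, -1.44 and -1.25 without N lysate 3, and all were called lower in that fit.

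**Figure D5:**
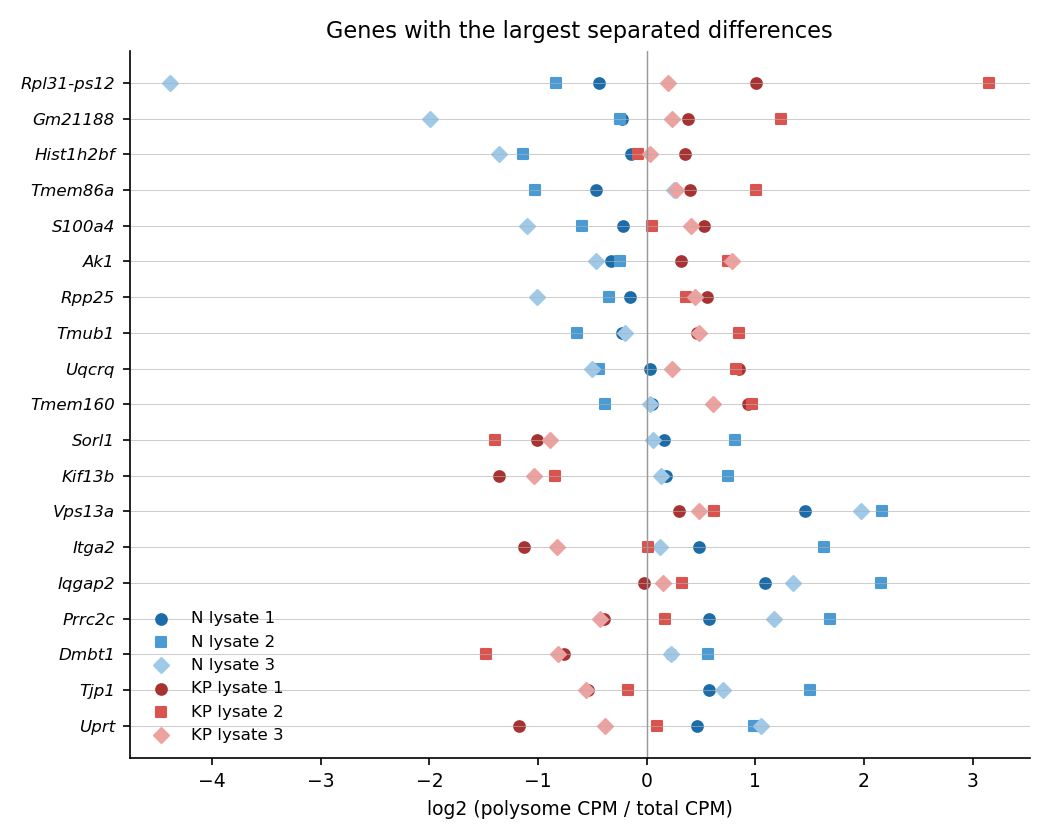
Ratio (log2 of polysome CPM over total CPM) of the 10 genes named as higher and 9 genes lower in KP, with a point for each vehicle lysate. The groups do not overlap because non-overlap was part of the choice, and Rpl31-ps12 spans from -4.38 in N lysate 3 to 3.15 in KP lysate 2.

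Among further genes taken from the study, Trp53 had -0.41, -0.61 and 0.37 in N and -0.06, 0.02 and 0.07 in KP, a difference of 0.23 ± 0.27 (adjusted p = 0.73; 0.49 and adjusted p = 0.26 without N lysate 3). The groups overlapped, and reads of the mutant and wildtype alleles are not told apart by these counts.

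Ndufa3, of complex I, had 0.00, -0.61 and -0.29 in N and 0.52, 0.49 and 0.05 in KP, a difference of 0.65 ± 0.23 (adjusted p = 0.43; 0.63 and adjusted p = 0.21 without N lysate 3). Sdhb, the iron-sulfur subunit of complex II, had -0.51, -0.80 and 0.55 against 0.39, 0.50 and -0.34, a difference of 0.44 ± 0.35 (adjusted p = 0.60; 0.81 and adjusted p = 0.19 without N lysate 3, and 0.14 without N lysate 2). Ndufa3 was separate between the groups, and Sdhb was split within each, by N lysate 3 and by KP lysate 3. The glutamine transporter Slc1a5, at -0.04, was at 0.08 without N lysate 3. Myc was at -0.26 (-0.13), with adjusted p = 0.66 and 0.81. The NADPH-producing enzymes G6pdx, Pgd and Idh1 were at -0.27, 0.02 and -0.28 with all lysates and at 0.01, 0.26 and 0.02 without N lysate 3. Gss and Gsr, which make glutathione and reduce its oxidised form, were at 0.11 each and at 0.49 and -0.11 without N lysate 3, and Gss was at -0.14 without N lysate 2.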

How the data were processed

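Total and polysome mRNA of 12 lysates was sequenced as 100-base read pairs. Per the labels and the study's methods, reads were aligned with HISAT2 and handled with SAMtools, multiply mapped reads were discarded, and reads were counted over whole transcripts of RefSeq coding genes with RPKMforgenes. The notes name the human build hg38, yet the deposited table lists mouse RefSeq genes, so the build used is unclear. The authors deposited counts per gene and RPKM values (counts scaled to transcript length and library size). RPKM was used only to derive the transcript length implied by each gene's counts, and all tests used the counts. Intervals from counts would cover counting error only and are not given.

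Entries naming several symbols (1042 of 19895) were left out, as were genes with a count of 0 in any of the 24 libraries, leaving 11438 genes. One model was fitted to all 24 libraries with edgeR 4.0.16 (R 4.3.3; TMM normalization, quasi-likelihood test, a block for each lysate), and the interaction of fraction and organoid type among vehicle lysates was tested, with Benjamini-Hochberg adjustment over all genes and a threshold of 0.25, as in the study. The study's anota2seq was not used here, and a regression of polysome on total log2 CPM stands in for it among the alternatives. Ratios per lysate were differences of log2 CPM with a prior count of 0.5. Lists and length classes were described by medians without a test, since genes are not replicates. Coding lengths came from the transcript with the longest coding sequence in GENCODE M21 (GRCm38), and 5′ ends from RefSeq (GRCm38.p6). Genes and lists were chosen with earlier results of these data known. Single genes were named by rule among those with 100 counts in each vehicle library. Named were the 10 largest differences in each direction with groups that did not overlap. The 2 highest and 2 lowest members of each list described at length were named as well. Genes of the study were named without that minimum. A few genes that the rule names are not reported here. Figures used matplotlib 3.10.9. Alternatives were DESeq2 1.42.0, limma 3.58.1, that regression, other normalizations, filters and prior counts, vehicle libraries alone, a replicate block and leaving out each lysate. The main test, DESeq2, limma and that regression were run on simulated counts, and the other alternatives were not. In the simulation both libraries of a lysate shared the same level per gene, apart from the changes put in. It thus held no lysate that departs as N lysate 3 does. A chi-square comparison of counts, run between the replicates within each of the 4 vehicle groups, found no pair of identical libraries; other pairs were not compared.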

Additional observations from a re-analysis of the deposited data

How the results depend on the processing

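With all lysates, the count of genes called was 0 in each direction under edgeR with other normalizations and filters, with vehicle libraries alone and under limma. It was 161 higher and 213 lower under DESeq2, and 595 and 602 under a regression of polysome on total. Leaving out 1 lysate at a time gave 0 to 956 higher and 0 to 1191 lower, with calls only without N lysate 3, and 2289 and 1808 when both lysates of N replicate 3 were left out. Replicate numbers did not pair the samples, since the deviations of same-numbered N and KP lysates correlated at 0.10, 0.10 and -0.03, and the replicate block gave 0 higher and 0 lower. The long minus short value lay between -0.85 and -0.47 with 1 lysate left out, and was -0.36 for 3′ UTR and -0.12 for 5′ UTR length. Relative to genes of the same coding length, list medians were -0.026 for cytosolic ribosomal proteins, 0.10 for complexes II to IV, 0.16 for ATP synthase, -0.067 for mitosis, -0.032 for chromatin regulators, 0.081 for adhesion, -0.023 for iron-responsive mRNAs, 0.073 for mitochondrial import and -0.16 for RAS, RAF and p53 genes. With 1 lysate left out, medians ranged from -0.035 to 0.32 for glycolysis, -0.44 to -0.15 for mitosis, -0.28 to 0.056 for cholesterol synthesis, -0.18 to 0.052 for stress-response mRNAs with upstream reading frames, -0.26 to -0.036 for iron-responsive mRNAs and -0.27 to -0.064 for zinc finger genes.

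Of 1666 values of 98 named genes under 17 alternatives, 49 had the opposite sign. Under the regression these were Ndufs1 at 0.044, Cox7a2l at -0.10, Atp5a1 at 0.19, Atp5b at 0.67, G6pdx at 0.12 and Idh1 at 1.10. Atp5b was 0.015 with RLE size factors and with DESeq2 and 0.024 with vehicle libraries only, and the Pgd log2 difference was -0.0059 with upper-quartile normalization. With 1 vehicle lysate left out, values ranged from -0.49 to 0.21 for Mrps22, -0.17 to 0.35 for Ndufa9, -0.17 to 0.21 for Cox7a2l, -0.27 to 0.14 for Atp5a1, -0.21 to 0.32 for Atp5b, -0.70 to 0.19 for Hist1h4h, -1.20 to 0.65 for Hist1h2be, -0.34 to 0.43 for Kmt2d, -0.22 to 0.0049 for Eif4e, -0.17 to 0.085 for Slc1a5, -0.14 to 0.49 for Gss, -0.11 to 0.22 for Gsr, -0.44 to 0.0053 for G6pdx, -0.17 to 0.26 for Pgd and -0.49 to 0.024 for Idh1. Without both lysates of N replicate 3 the values were 0.25 for Mrps22, 0.39 for Ndufa9, -0.12 for Cox7a2l, 0.18 for Atp5a1, 0.36 for Atp5b, 0.24 for Hist1h4h, -0.30 for Kmt2d, 0.028 for Timm44, 0.040 for Eif4e, 0.13 for Slc1a5, 0.53 for Gss, -0.070 for Gsr, 0.046 for G6pdx, 0.30 for Pgd and 0.065 for Idh1. The cause of these shifts was not tested. GC content and leaving out the immediate early genes were chosen after seeing the data, and without those genes the long minus short value was -0.71.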

Other observations

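The lysates given CR-31 offered the same length measure in samples outside the comparison. The longest minus the shortest coding-length quintile was 0.30, 0.35 and -0.05 in the N lysates. It was 0.34, -0.02 and 0.04 in the KP lysates, so the groups overlapped. The overlap came from N lysate 3, of the replicate that stood apart, and from KP lysate 1. Without these lysates N was at 0.30 and 0.35 and KP at -0.02 and 0.04. The CR-31 polysome library of KP lysate 1 correlated at r = 0.961 with its own total library. With the vehicle total library of KP replicate 1 it correlated at r = 0.991. The source of this was not tested.

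The 4 libraries of N replicate 3 were also combined in other ways, as values only and with no sample moved to another group. Polysome over total as labelled gave an SD of the ratio over genes of 0.73 with vehicle and 0.75 with CR-31. The polysome library labelled CR-31 over the total library labelled vehicle gave an SD of 0.36, and its ratios correlated across genes at r = 0.44 and 0.31 with those of N lysates 1 and 2. The polysome library labelled vehicle over the total library labelled CR-31 gave an SD of 0.35, with r = 0.29 and 0.28. The longest minus the shortest quintile was -0.05 and 0.18 in these combinations.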
